A study of Mus musculus with 43 samples.

Results

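Non-dysplastic colonic epithelium of mice kept on chow with 2 mg folic acid (FA) per kg was compared with that of mice moved to chow with 0 mg FA. These are the 7 libraries labelled 2 mg FA (2ND) and the 5 labelled 0 mg FA (0ND) among the non-neoplastic epithelium of the first cohort, 12 of the 43 libraries of the series. Diet, tissue, cohort and mouse number were read from the sample labels, and each library came from a different mouse. All 12 mice were female Swiss Webster mice that ate 2 mg FA chow until 11 weeks of age, received azoxymethane (AOM), a colon carcinogen, at 7 weeks and 4 cycles of 2% dextran sulfate sodium (DSS), which injures the colon lining, from 9 weeks. They were killed at 27 weeks after 16 weeks on their diet, so 0ND stands for folate withdrawal after the carcinogen and the first DSS cycle, in inflamed colon, and not for a lifelong lack of folate. Cells were laser-microdissected from formalin-fixed sections, and the cell type was not checked against markers, since the files of this series hold DNA methylation only.

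Folate carries the methyl groups from which cells make S-adenosylmethionine, the donor that DNA methyltransferases use to methylate cytosine in CpG dinucleotides. Colonic epithelium renews itself continuously, so its methylation has to be copied at each division. In mammalian DNA most CpGs standing apart are methylated, while CpGs packed into islands, many of them at promoters, are mostly unmethylated.

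The assay, DREAM, cuts the site CCCGGG first with SmaI, which methylation of the central CpG blocks, and then with XmaI, which it does not, so the end of each read tells whether that DNA copy was methylated. Methylation of a site is the methylated share of its reads. A change in the share of cells carrying methylation and a change in the mix of cells in the dissected tissue cannot be told apart in such a share. The authors listed 173449 sites on mm9 and gave the share as measured (raw) and after an adjustment with spiked standards of known methylation, and percentages below are the adjusted ones except where called raw. Comparison was limited to the 15165 sites with 20 reads or more in each of the 12 libraries. Libraries held 1821380 to 16923453 reads on sites, and the median depth of a compared site from 84 to 775 reads. Sites are given by chromosome and mm9 position, and their genes are not given because the genome at hand was a later build.

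The compared sites are a special part of the genome. Of them, 99.2% had another listed CCCGGG site within 400 bases, against 27.4% of all listed sites, and the median distance to the nearest listed site was 163 bases against 2563. DREAM reads run from one cut to the next, so isolated sites were seldom covered. The findings below therefore concern CCCGGG sites standing in close pairs or clusters.

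Methylation was slightly higher after folate withdrawal. Averaged over the 15165 sites, it was 17.4, 17.6, 17.5, 18.2 and 17.0% in the 5 0ND libraries, and it ran from 15.7 to 17.3% in the 7 2ND libraries, so the groups overlapped. The means were 17.6% ± 0.450 (SD, n = 5) in 0ND and 16.8% ± 0.524 (SD, n = 7) in 2ND, a difference of 0.758 percentage points (two-sided exact permutation test over all 792 assignments of the libraries, p = 0.0114). Mouse LC1832 gave the lowest 2ND value, 15.7%, and without it the difference was 0.577 points (exact permutation p = 0.0152). Raw percentages gave 14.0% ± 1.88 (SD, n = 5) and 13.4% ± 1.78 (SD, n = 7), and their difference of 0.589 points was within the spread of the libraries (exact permutation p = 0.587). When all reads of a library were pooled, so that deeply read sites counted more, the adjusted share was 0.519 points lower in 0ND, with an exact permutation p of 0.508.

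**Figure D1:**
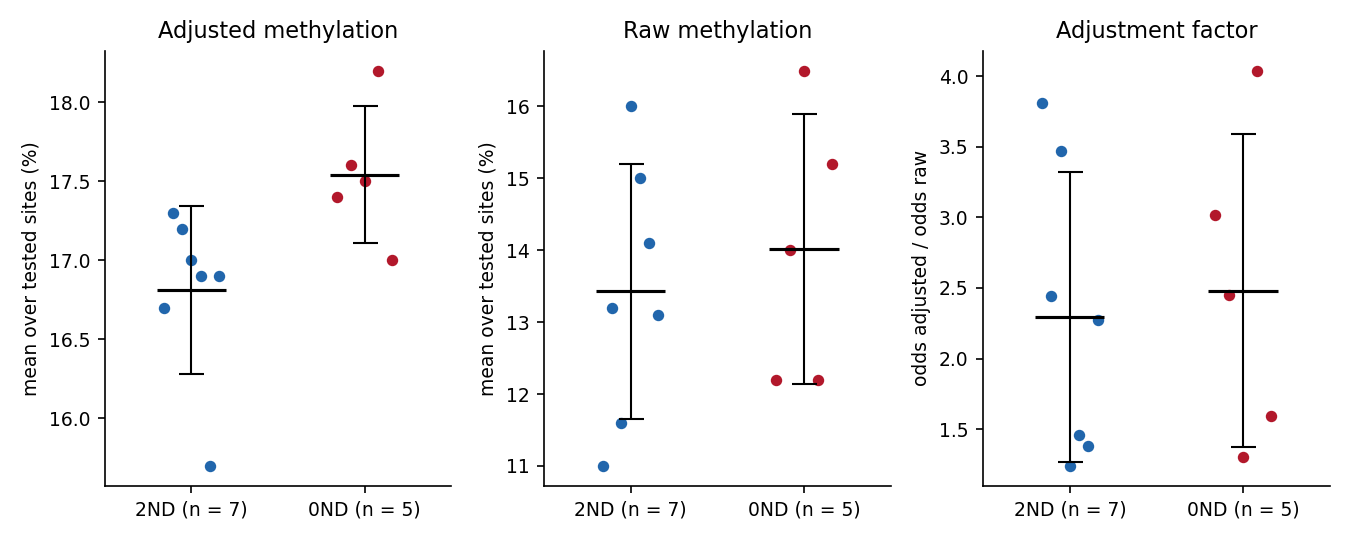
Each point is 1 library, with the group mean and SD in black, for mean adjusted methylation (%), mean raw methylation (%) and the adjustment factor (odds of adjusted over odds of raw methylation). Adjusted means lay between 17.0 and 18.2% in 0ND and between 15.7 and 17.3% in 2ND, while raw means and factors covered much the same range in both diets.

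The difference between raw and adjusted values comes from the standards. In each library the adjustment multiplied the odds of methylation at every site by 1 factor. The 0ND factors lay between 1.30 and 4.04, those of 2ND between 1.24 and 3.81, and they averaged 2.48 ± 1.11 (SD, n = 5) and 2.30 ± 1.03 (SD, n = 7), with an exact permutation p of 0.765. After adjustment the 16 standards between 5 and 95% averaged 38.9% ± 0.633 (SD, n = 5) in 0ND and 39.2% ± 0.377 (SD, n = 7) in 2ND, a difference of -0.245 points (exact permutation p = 0.423), and 8 of the 16 were higher in 0ND and 8 lower. In raw percentages these standards averaged 24.9% ± 6.60 (SD, n = 5) and 26.2% ± 7.09 (SD, n = 7). The adjustment was made with spiked standards, so like means after it were largely set in advance and do not test it. Passed through the rule used below for sites, 1 of all 18 standards was called. It was the standard named Sla341_2, at 31.1% ± 4.05 (SD, n = 5) in 0ND and 36.5% ± 1.61 (SD, n = 7) in 2ND, so at this standard the adjusted values were lower in 0ND by more than 5 points with at least 6745 reads behind each. The most methylated standards, from T353_1 (50.2% in 2ND) upward, were all higher in 0ND. Differences were 3.22 (T353_1), 0.106 (Sla374_2), 0.895 (Sla374_1), 0.242 (T324_1) and 0.247 points (T324_2). The least methylated ones, La168_1 and La168_2, differed by -1.71 and -0.868 points. Those between went both ways, from -5.35 (Sla341_2) to 3.63 points (T353_2). Whether the differences of the standards varied with their methylation was not tested.

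At 673 sites, 4.44% of those compared, the diets differed by more than 5 points and passed a two-group test at an unadjusted p under 0.05. Both thresholds are those of the study, and the two-sided, equal-variance form of the test was set here. Methylation was higher in 0ND at 608 of them (4.01% of sites compared) and lower at 65 (0.429%). Thus 90.3% of the called sites, with a 95% Wilson interval of 87.9 to 92.3% that covers counting error only and treats sites as independent, were less methylated on 2 mg FA. No site passed Benjamini-Hochberg adjustment of the equal-variance test, of limma or of an exact permutation test per site, which gave 951 (6.27%), 1000 and 1003 sites at an unadjusted p under 0.05. A quasi-binomial model of the read counts gave 2546 at that threshold, and 71 after Benjamini-Hochberg adjustment, 16 of them with a difference above 5 points. Most of the 71 thus differed by 5 points or less. The model took the spread of each site as estimated, with no lower bound at counting error, so sites with hardly any spread pass easily. The 673 sites are therefore described as a group. In simulated libraries with the coverage, levels and spread of these, the rule called 0.956% of unchanged sites, both directions together. The simulated sites varied independently, with no likeness of neighbors and no shift shared by the sites of a library. How far the count of false calls can vary in the real libraries is therefore not given by it. Whether the 65 lower calls exceed such false calls was not tested.

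Sites higher in 0ND were mostly methylated already. Their median was 68.4% in 2ND and 79.6% in 0ND, and the median difference was 10.3 points, with 324 sites above 10 points and 25 above 20 points. The 65 sites lower in 0ND had a median of 20.4% in 2ND and 12.4% in 0ND, with 29 above 10 points and 1 above 20 points. Every one of the 608 and of the 65 differed in the same direction in raw percentages, as did 72.3% of all compared sites. Both percentages come from the same reads and the sites were chosen on the adjusted ones, so this is no independent check. Raw values called only 150 sites (0.989%), 97 higher (0.640%) and 53 lower (0.349%) in 0ND, and shared 104 calls with the adjusted values. Just above the boundary, at 5 to 6 points, 53 sites were called, 44 of them higher in 0ND, and just below it, at 4 to 5 points, 69 sites met the p threshold, 55 of them higher in 0ND.

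The number in the deposited names of the libraries, whose meaning is not stated, falls in 2 ranges, and they are spread unevenly. The commoner range holds 2 0ND and 6 2ND libraries, the other 3 0ND libraries and 1 2ND library. With the range as a term in limma, 605 sites (3.99%) were called, 533 higher and 72 lower in 0ND. Within the commoner range alone the mean over sites was 1.15 points higher in 0ND (exact permutation p = 0.0714, where 0.0357 is the smallest p that 2 against 6 allows), and 419 sites (2.76%) were called, 380 of them higher in 0ND and 261 of them shared with the 673. Without mouse LC1832, the lowest 2ND library, 529 sites (3.49%) were called, 462 higher and 67 lower in 0ND, and 504 of them were among the 673. The count of lower calls was the less steady one, at 104 in place of 65 without mouse LC1817 of 0ND (511 higher) and at 102 with each library centred on its mean (513 higher).

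To place sites by starting level without using the compared mice, the level of a site was taken as its mean in the 6 first-cohort libraries on 8 mg FA (8ND). This was possible at 13367 of the compared sites, and 518 of the 673 called sites have a level. The difference between diets varied with it. At 9886 sites with a level under 5% methylation was 0.395% ± 0.140 (SD, n = 5) in 0ND and 0.455% ± 0.0531 (SD, n = 7) in 2ND (exact permutation p = 0.318), and 4 sites were called higher and 1 lower in 0ND. At 797 sites of level 5 to 20% the difference was -0.713 points (exact permutation p = 0.419), and calls were balanced, with 25 sites higher and 25 lower in 0ND, 3.14% of sites each way.

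Above a level of 20% more sites were called higher than lower in 0ND, though at level 20 to 30% the shift was small. Those 390 sites had 19 higher and 10 lower calls, a mean difference of 0.575 points and a median of -0.0354. At 912 sites of level 20 to 50% the 5 0ND libraries stood at 36.9, 36.5, 36.7, 39.4 and 33.1% and the 2ND libraries between 31.0 and 35.3%. The difference was 2.44 points (exact permutation p = 0.0745, 0.121 after Benjamini-Hochberg adjustment over the 13 strata of level and density). Mouse LC1820 was the 0ND library inside the 2ND range, and without it the difference was 3.29 points, with an adjusted exact permutation p of 0.0131. That library was singled out by its value. In 11 of the 12 omissions of a single library the threshold was still missed. Differences went down to 1.71 points and adjusted exact permutation p values up to 0.240. Of these sites 102 were called higher in 0ND (11.2%) and 20 lower (2.19%).

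The largest difference among the level strata was at sites of level 50 to 80%. At these 794 sites the 0ND libraries stood at 68.9, 72.8, 73.8, 73.7 and 70.8%, all above the 2ND libraries, which stood at 66.7, 68.6, 68.1, 68.4, 66.0, 59.9 and 67.1%. The means were 72.0% ± 2.10 (SD, n = 5) and 66.4% ± 3.02 (SD, n = 7). The difference of 5.59 points had an exact permutation p of 0.00126, the smallest that 5 against 7 allows, and 0.0109 after adjustment over the strata. Of the sites, 214 (27.0%) were called higher in 0ND and 6 (0.756%) lower, and 85.6% of all of them, called or not, had the higher mean in 0ND. Mouse LC1832 was far below the other 2ND libraries here at 59.9%, and without it the difference was 4.50 points (adjusted exact permutation p = 0.00938).

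At 978 sites of level 80% and over, the 0ND libraries stood at 91.2, 93.9, 93.8, 93.7 and 92.9% and the 2ND libraries between 86.5 and 91.5%, so that mouse LC1807 of 0ND lay inside the 2ND range. Their means differed by 2.82 points (exact permutation p = 0.0101, 0.0219 after adjustment). The adjusted exact permutation p rose to 0.0657, with differences of 2.64, 2.64 and 2.67 points, when mouse LC1809, LC1810 or LC1817 was left out. Calls were 120 higher and 1 lower in 0ND.

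**Figure D2:**
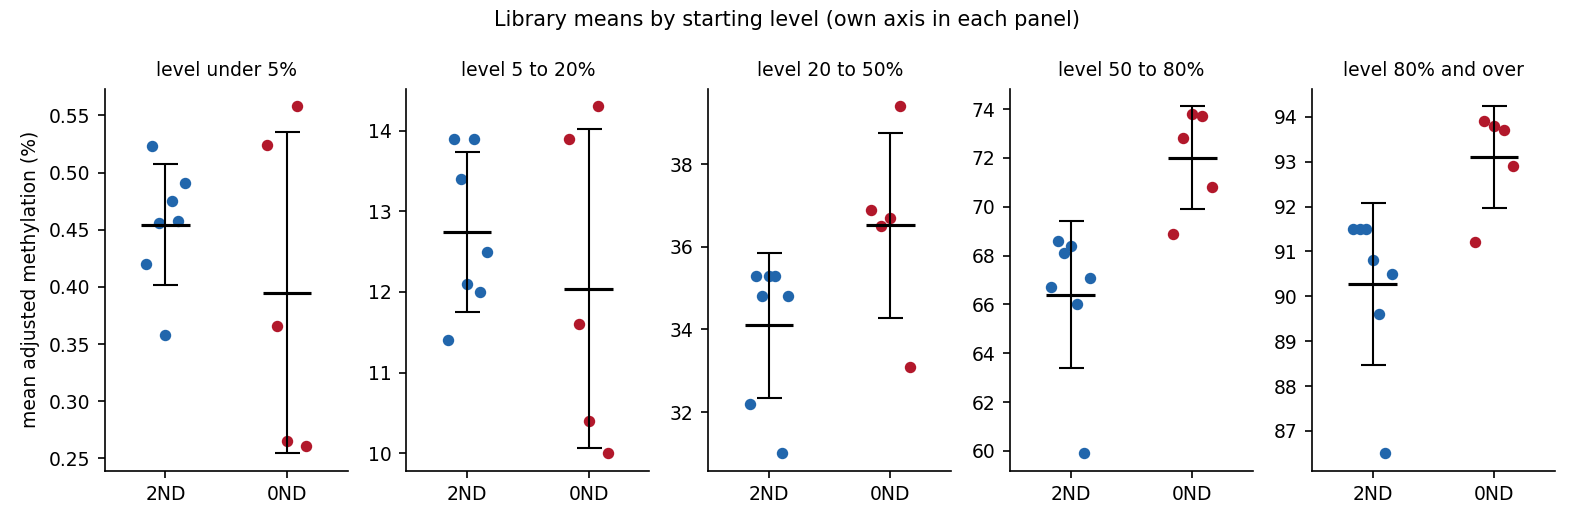
Mean adjusted methylation (%) of each library at sites grouped by starting level in 8ND, with group mean and SD in black and an axis of its own in each panel. The 0ND libraries lay above all 2ND libraries at level 50 to 80% (68.9 to 73.8% against 59.9 to 68.6%) and overlapped them at the other levels.

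Point differences shrink near 0 and 100%, so odds were compared too, as an alternative chosen after the data were seen. The odds of methylation in 0ND over those in 2ND were 0.829 under 5%, 0.929 at 5 to 20%, 1.11 at 20 to 50%, 1.30 at 50 to 80% and 1.45 at 80% and over. On this scale the ratio rose with level up to the most methylated sites, whose exact permutation p on log odds was 0.00505. A direct test of strata set the difference at level 20 to 80% 4.01 points above that under 20% (exact permutation p = 0.00126, 0.00379 adjusted over 3 such contrasts). Between level 20 to 80% and level 80% and over the gap was 1.08 points (exact permutation p = 0.186), so a difference between these strata was not shown. In bins of 10 points, the share called higher in 0ND was 4.87% at level 20 to 30%, where 2.56% were called lower. It climbed to 30.7% at 70 to 80% and was 24.1% at 80 to 90% and 3.85% above 90%. The median SD of a site between libraries moved with level as well, from 9.05 points in 0ND and 8.30 in 2ND at level 50 to 60% to 1.72 and 2.32 above 90%, and a difference of over 5 points is hard to reach in that last bin, where 0ND averaged 96.1% and 2ND 94.3%.

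Of the 8ND libraries that set the level, those of mice LC1841 and LC1858 carried 44.8 and 48.3% of their reads on the standards, against 3.37 to 12.6% in the other 4. With the level taken from those 4 alone, the difference at level 50 to 80% was 5.58 points, and with the level taken as the midpoint of 0ND and 2ND it was 6.03 points, each with an adjusted exact permutation p of 0.0109. In raw percentages the differences at level 20 to 50%, 50 to 80% and 80% and over were 0.687, 4.67 and 3.36 points, with exact permutation p values of 0.856, 0.436 and 0.275 among libraries whose raw means differ widely.

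Sites were also counted per library in bands of methylation, after these values had been seen. On average 1728.6 ± 112.0 sites (SD, n = 5) were at 80% or over in a 0ND library and 1431.9 ± 147.7 (SD, n = 7) in a 2ND library (exact permutation p = 0.00253, 0.00758 adjusted over 4 bands). Single libraries held at least 1553 such sites in 0ND, the lowest being LC1807, and at most 1559 in 2ND. The count at 20 to 80% was lower in 0ND, 1860.2 ± 173.1 (SD, n = 5) against 2184.3 ± 149.7 (SD, n = 7), with an exact permutation p of 0.00379. Sites under 5% numbered 10699.0 ± 211.5 (SD, n = 5) and 10576.1 ± 75.1 (SD, n = 7), with an exact permutation p of 0.182.

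Local site density was counted as the number of other listed CCCGGG sites within 1000 bases on either side. The difference between diets fell as density rose. At 81 sites with no other site in the window, methylation was 50.4% ± 1.31 (SD, n = 5) in 0ND and 47.3% ± 1.60 (SD, n = 7) in 2ND, a difference of 3.11 points (exact permutation p = 0.00253, 0.0109 adjusted). At 5427 sites with 1 other site it was 34.1% ± 0.774 (SD, n = 5) and 32.4% ± 1.06 (SD, n = 7), a difference of 1.75 points (exact permutation p = 0.00379, 0.0123 adjusted). With 2 to 3 other sites (6242 sites) the difference was 0.314 points and with 4 or more (3415 sites) it was -0.0712 points, with exact permutation p values of 0.186 and 0.490.

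Calls followed the same order. Higher calls made up 18.5% of sites with no other site near, 8.51% with 1, 2.00% with 2 to 3 and 0.176% with 4 or more. The densest class held 6 sites called higher and 8 called lower. In all, 511 of the 673 called sites had 0 or 1 other site in the window, as had 5508 of the 15165 compared.

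Density and level go together, since 94.0% of the sites with 4 or more neighbors and 50.0% of those with 1 had a level under 5%. Density was therefore compared again at partly methylated sites, those of level 20 to 80%. The difference was 4.81 points at 24 sites with no other site near (adjusted exact permutation p = 0.0197), 4.58 points at 1157 sites with 1 (0.0109) and 3.11 points at 451 sites with 2 to 3 (0.0375). At 74 sites with 4 or more neighbors it was -2.08 points, at 36.3% ± 3.05 (SD, n = 5) in 0ND and 38.4% ± 3.56 (SD, n = 7) in 2ND, with an adjusted exact permutation p of 0.376. Of these 74 sites, 1 was called higher and 2 lower in 0ND, against 234 higher (20.2%) and 14 lower (1.21%) among the 1157. The contrast between partly methylated sites with 2 or more neighbors and those with none was -2.44 points (exact permutation p = 0.0467, 0.0701 adjusted over 3 contrasts), so a part of density beyond level was not shown at the threshold. With a window of 5000 bases, sites with 4 or more neighbors gave 2.15 points instead of -2.08, with an adjusted exact permutation p of 0.110.

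**Figure D3:**
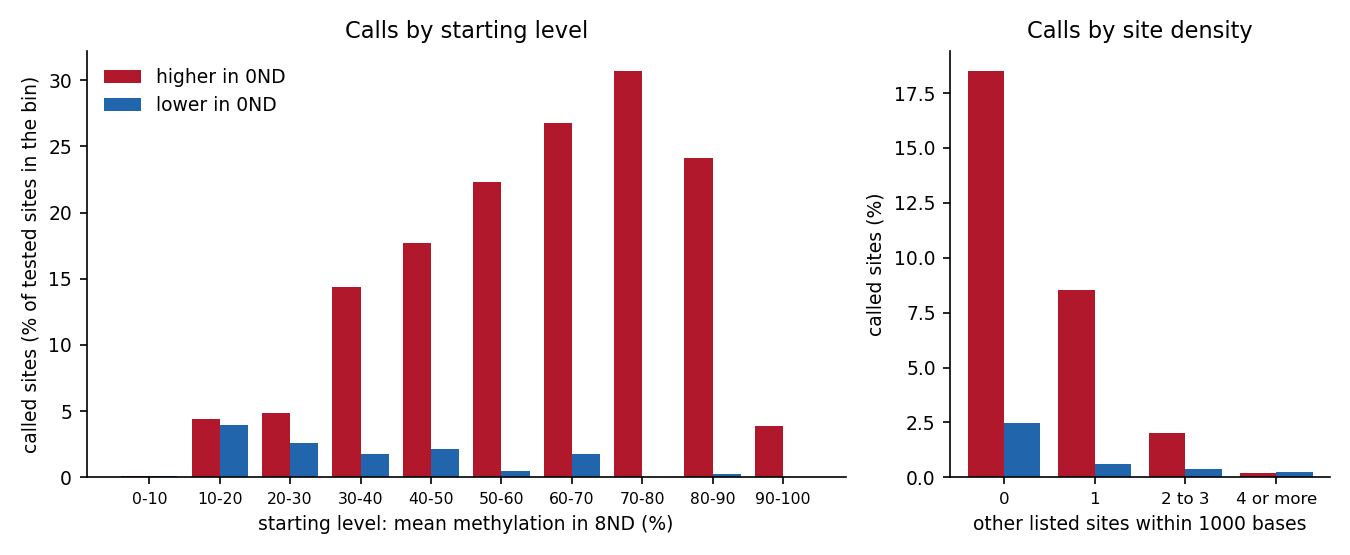
Share of compared sites called (%) in bins of starting level in 8ND (left) and by number of other listed sites within 1000 bases (right), with sites higher in 0ND in red and lower in blue. Calls higher in 0ND peak at 30.7% of sites at level 70 to 80% and fall from 18.5% to 0.176% as density rises.

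Read depth and calling were set side by side. Sites were split into 4 classes of about equal size by the reads in their shallowest library. In the class with the fewest reads 6.69% were called, and in the deepest 0.575%. The classes differ in level as well, since only 121 sites of the deepest class had a level of 20% or over, against 778 in the shallowest. At level 20% and over, 13.9, 19.2, 18.8 and 11.6% of sites were called from the shallowest to the deepest of the 4 classes, and mean differences were 3.02, 4.10, 3.30 and 1.38 points.

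Called sites were spread over the genome. The mean difference was positive on each of the 19 autosomes, from 0.396 points on chromosome 19 to 0.983 on chromosome 9, and 2.69 to 5.37% of an autosome's sites were called. Chromosome 11 held the most calls, 65 higher and 6 lower in 0ND among 1322 sites.

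Neighboring sites tended to differ in the same direction. A run was counted where 2 or more consecutive compared sites, at most 1000 bases apart, were called in the same direction. There were 128 runs, 127 of 2 sites and 1 of 3, and they held 257 called sites, 38.2% of all. In 124 runs methylation was higher in 0ND and in 4 it was lower. Runs spanned 104 to 356 bases with a median of 214. Their median difference was 10.8 points for runs higher in 0ND, from 67.9% in 2ND to 79.0% in 0ND, and their sites had a median depth of 323 reads. Of the 97 higher runs with a level, 48 were at 50 to 80%, 24 at 80% and over, 23 at 20 to 50% and 2 under 20%. The 4 lower runs lay at 2 levels, 2 of them under 20% and 2 at 20 to 50%.

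Where a called site was not in a run, its neighbor usually leaned the same way. Of 602 called sites with a compared neighbor within 1000 bases, 42.7% were in runs. Over all sites compared 4.44% were called, and at level 50 to 80% 27.0% were called higher. The neighbors of the rest numbered 357, and 334 of them (93.6%) differed in the same direction as the called site, by a median of 4.16 points. Called or not, 59.6, 85.6 and 89.0% of sites were higher in 0ND at levels 20 to 50%, 50 to 80% and 80% and over. A lean of neighbors beyond this general shift was not tested. These counts are a description, because neighbors are often the 2 ends of the same DNA fragments. Across pairs of sites 101 to 200 and 201 to 300 bases apart (3689 and 2613 pairs), the differences between diets correlated with r = 0.632 and 0.704. The read counts across libraries did so too, with r = 0.861 and 0.897. Mice on the same diet also varied alike at neighboring sites. Where both sites were partly methylated (level 20 to 80%, 352 and 248 pairs), deviations of libraries from their diet mean correlated with r = 0.616 and 0.659. The differences between diets at these pairs correlated with r = 0.637 and 0.758, so likeness of neighbors was not particular to the diet difference. For 177 pairs 501 to 1000 bases apart the differences between diets correlated with r = 0.257 and the read counts with r = 0.0457. At 1001 to 5000 bases (271 pairs) these values were 0.0911 and 0.137. At 5001 to 50000 bases (1335 pairs) they were 0.0311 and 0.0322. Pairs share libraries and, at short range, fragments, and the part of shared fragments in the runs was not tested.

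The longest run, 3 sites on chromosome 19, went against the main direction. At position 5756737 methylation was 22.9, 22.0, 19.1, 27.3 and 12.4% in the 5 0ND libraries and from 22.9 to 51.2% in 2ND with a median of 39.4%, a difference of -15.5 points. At 5756941, 204 bases on, 0ND ran from 24.9 to 38.3% and 2ND from 30.4 to 56.9%, a difference of -11.0 points that lost its call when any of 8 of the 12 libraries was left out. At 5757093 the 0ND values of 35.6, 34.5, 29.6, 32.7 and 23.3% were all below those of 2ND, which ran from 37.4 to 49.9% with a median of 39.9%, a difference of -11.2 points. Groups overlapped at the former 2 sites and did not at the last one. This run has 3 other listed sites within 1000 bases of each member, more than most called sites.

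The runs with the largest mean difference were higher in 0ND. On chromosome 17, the site at 80548379 had 71.4, 81.8, 85.5, 58.0 and 52.4% in 0ND and 23.5 to 59.4% in 2ND with a median of 49.0%, and its partner 112 bases on, at 80548491, had 58.6, 70.1, 66.3, 56.1 and 45.8% against 10.8 to 51.3% with a median of 34.4%. The differences were 25.4 and 27.1 points, and the groups overlapped at both sites. On chromosome 6, the site at 50328253 had 75.6, 70.8, 73.0, 48.1 and 56.2% in 0ND and 25.0 to 57.3% in 2ND, and the site at 50328454 had 73.1, 75.2, 76.2, 54.4 and 58.8% against 21.9 to 65.0%. The differences were 25.5 and 25.1 points, again with overlap. In 8ND these 4 sites had levels of 35.1, 21.9, 31.1 and 32.9%.

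**Figure D4:**
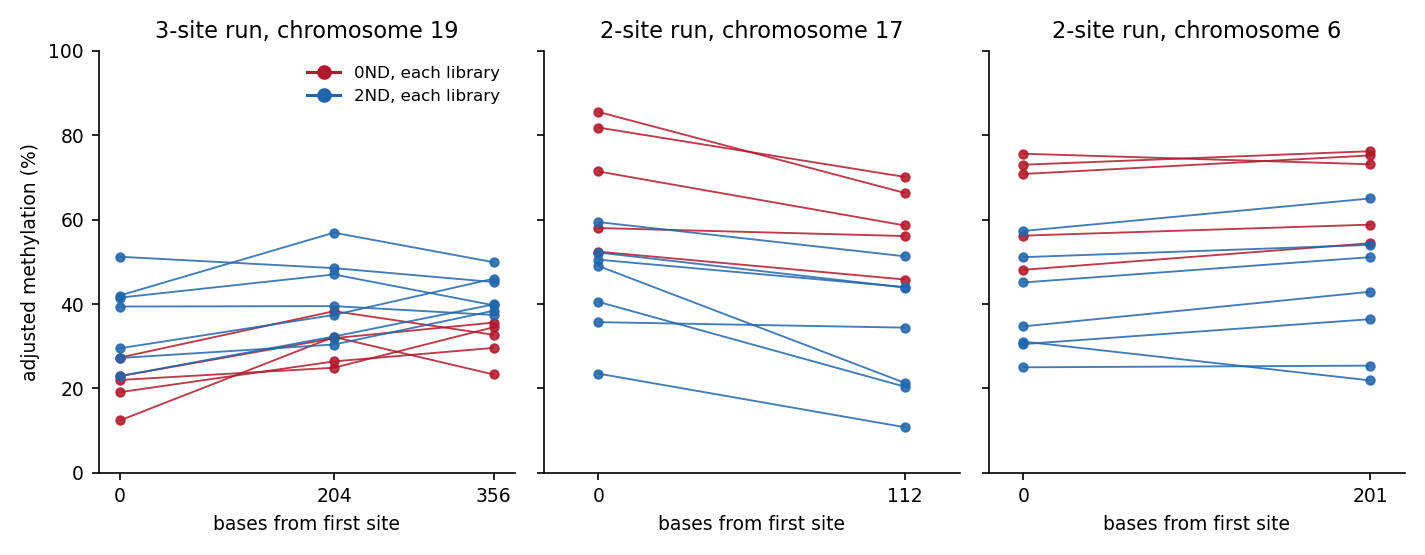
Adjusted methylation (%) of each library along the 3 runs described, against distance in bases from the first site of the run, with 0ND in red, 2ND in blue and a line joining the sites of a library. Single libraries shift between the sites of a run, most on chromosome 17 (2ND library LC1814 from 49.0 to 21.3%), and 0ND lies mostly below 2ND in the 3-site run and mostly above it in the 2-site runs.

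Sites whose 12 libraries separated fully by diet were rarer. There were 99 (0.653% of sites compared), and 76 of them (0.501%) were also called, 70 higher (0.462%) and 6 lower (0.0396%) in 0ND. The sites named next are those with the largest differences among these 76. Every one of them overlapped between the diets in raw percentages, where the libraries differ by their factors.

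The site at 74274046 on chromosome 1 had 52.6, 63.9, 70.9, 49.1 and 58.2% in 0ND and 26.2 to 42.2% in 2ND with a median of 36.7%. Its mean rose from 36.1% ± 6.13 (SD, n = 7) in 2ND to 58.9% ± 8.73 (SD, n = 5) in 0ND, by 22.8 points, with 92 to 1026 reads per library. Its neighbor 208 bases away was called too, at 84.9% in 0ND and 72.4% in 2ND. The site at 132827052 on chromosome 4 was tighter, with 74.8, 79.1, 80.8, 74.2 and 83.2% in 0ND and 45.3 to 63.2% in 2ND, a difference of 22.6 points behind which stood 37 to 541 reads. On chromosome 11 at 98973678, 0ND had 78.5, 85.4, 83.5, 74.6 and 77.0%. There 2ND was spread from 39.8 to 73.1% (SD 14.4, n = 7), with 3 libraries above 70% and 4 under 50%, and the difference was 22.3 points.

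The remaining sites of this group were separated by 18.4 to 19.8 points. At 76373972 on chromosome 2, 0ND ran from 46.1 to 60.0% and 2ND from 22.4 to 41.1%. At 37020592 on chromosome 15, 0ND had 86.3, 85.7, 85.6, 93.4 and 100.0% and 2ND 58.6 to 83.0%, with as few as 26 reads in a library. At 30034334 on chromosome 12, 0ND had 65.3, 72.8, 70.8, 65.5 and 67.6% and 2ND 45.2 to 58.8%, and the SDs of 3.32 (n = 5) and 5.44 (n = 7) were small beside the difference of 18.9 points. At the others, on chromosome 15 (98825707), chromosome 17 (24195624), chromosome 14 (78262617) and chromosome 8 (111420697), 2ND means of 22.4, 63.6, 67.2 and 27.1% stood against 41.2, 82.2, 85.6 and 45.5% in 0ND. All 10 sites had exactly 1 other listed site within 1000 bases, as had 462 of the 608 sites called higher and 5427 of the 15165 compared.

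The neighbors of these sites did not all differ alike. Next to the chromosome 14 site, the site 290 bases away had 97.6% in both diets, with a difference of -0.0317 points. Next to the chromosome 12 site, the site 133 bases away had 18.9% ± 4.30 (SD, n = 5) in 0ND and 22.7% ± 7.85 (SD, n = 7) in 2ND, a difference of -3.81 points against 18.9 at its partner. On chromosome 17 the neighbor at 168 bases differed by 2.23 points, at 94.4% in 0ND and 92.1% in 2ND. At the chromosome 11 site the neighbor at 191 bases was called too, with a difference of 19.1 points.

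Sites lower in 0ND were less methylated to begin with. The site at 168087656 on chromosome 2 had 20.6, 21.9, 17.4, 27.5 and 4.11% in 0ND and 28.2 to 44.8% in 2ND with a median of 33.2%, a difference of -16.2 points. The site at 55414053 on chromosome 6 had 36.8, 36.5, 30.4, 40.5 and 35.4% against 41.1 to 63.0%, a difference of -12.4 points. The site at 173181134 on chromosome 1 had 11.1, 9.02, 4.06, 7.11 and 9.33% against 15.8 to 22.1%, a difference of -9.66 points with SDs of 2.69 (n = 5) and 2.33 (n = 7). The site at 86630141 on chromosome 12 had 5.09, 3.23, 6.58, 1.33 and 0% against 7.17 to 16.9%, a difference of -8.73 points. The third in size is the last site of the chromosome 19 run.

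Libraries that took no part in choosing the sites were then set beside these values. In the first cohort, 8ND stood with 2ND at the called sites. Over 255 sites called higher in 0ND that also had 20 reads or more in every first-cohort 8ND and second-cohort epithelium library, methylation was 73.5% ± 2.38 (SD, n = 5) in 0ND, 62.5% ± 3.18 (SD, n = 7) in 2ND and 62.4% ± 3.54 (SD, n = 6) in 8ND. The sites were chosen on the first pair of these values, and the 8ND value alone is free of that choice.

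In the second cohort, epithelium was profiled on 0 and 8 mg FA only. The labels name the same tissue in both cohorts, but the study dissected either epithelial cells alone or epithelium with lamina propria, and the labels do not say which was used for a library. Of its 6 0ND mice, 3 (N1807, N1809 and N1820) were also in the first cohort, and 3 (N1805, N1808 and N1839) were not. Over the 255 sites these 3 other mice had 68.0, 69.8 and 68.7%, and the 6 8ND libraries ran from 58.7 to 70.4% with a median of 61.4%. Thus 5 of the 6 8ND libraries lay below all 3 mice, and mouse N1858, at 70.4%, lay above them. Values moved between cohorts in mice that gave a library to each. On 8 mg FA, mice 1830, 1841, 1848, 1856 and 1858 had 65.1, 58.3, 66.3, 63.6 and 57.7% in the first cohort. In the second they had 58.7, 64.0, 59.0, 60.0 and 70.4%. On 0 mg FA, mice 1807, 1809 and 1820 had 70.1, 74.8 and 72.9% in the first and 68.9, 74.3 and 68.2% in the second. The 3 0ND mice outside the first cohort were higher than 8ND at 184 of the 255 sites (72.2%), with a median difference of 4.88 points. At all 1552 sites of level 20% and over covered there, called or not, they were higher at 1002 (64.6%), with a median difference of 2.37 points. Of the 115 sites in runs 87 (75.7%) were higher in these mice, and of the 140 others 97 (69.3%).

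The sites called lower in 0ND gave mixed directions. At 35 of them covered in the same libraries, methylation was 15.7% ± 2.48 (SD, n = 5) in 0ND and 24.6% ± 1.47 (SD, n = 7) in 2ND of the first cohort. The 3 other 0ND mice of the second cohort had 21.0, 22.1 and 22.2%, inside the range of its 8ND libraries from 14.5 to 28.8%. These 3 mice were higher than 8ND at 21 of the 35 (60.0%). Beside it stand 64.6% of all sites of level 20% and over and 28.7% of all sites covered there. Neither share is matched to the 35 sites in level. With the 3 mice shared between cohorts included, the 6 second-cohort 0ND libraries were higher at 15 of the 35, with a median difference of -0.592 points. In the first cohort, whose 0ND libraries chose the sites, 0ND was higher than 8ND at 1 of 53. The second cohort holds no 2 mg FA library, and 5 of its 6 8ND mice also gave first-cohort 8ND libraries, so this is a comparison with another diet in partly the same mice and carries no test.

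**Figure D5:**
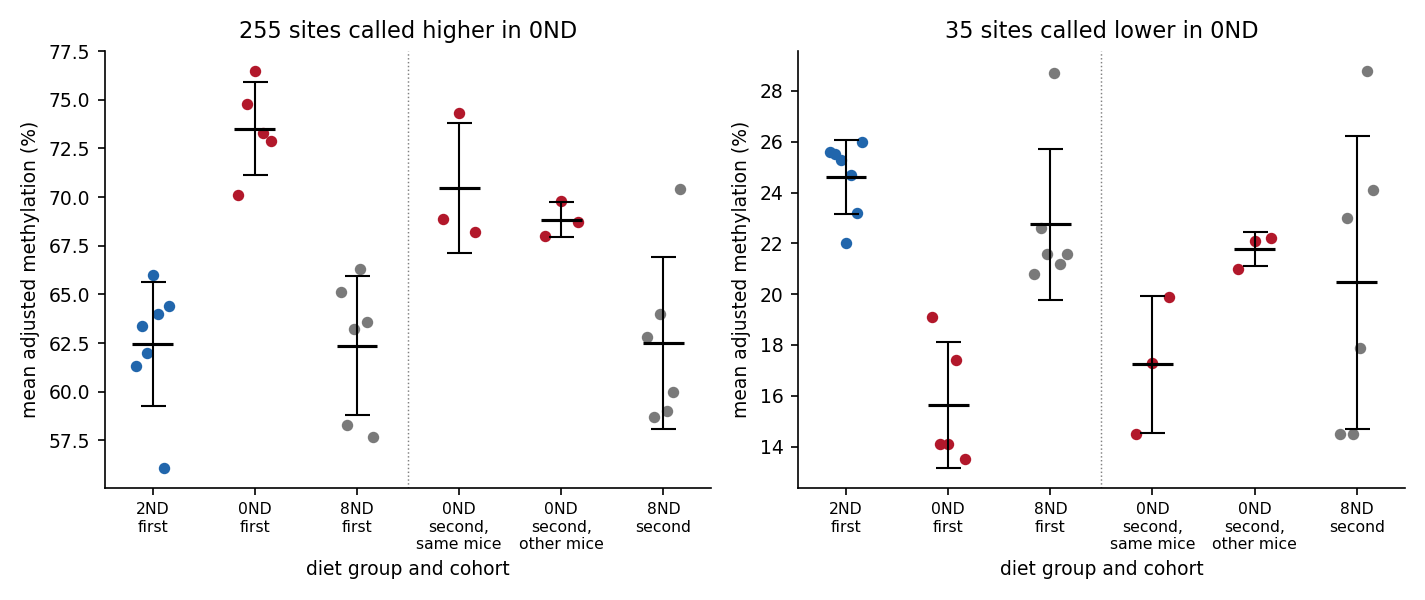
Mean adjusted methylation (%) per library, with group mean and SD in black, over 255 sites called higher (left) and 35 called lower (right) in 0ND, in first-cohort and second-cohort epithelium. In the left panel the 3 0ND mice outside the first cohort (68.0 to 69.8%) lie above 5 of the 6 second-cohort 8ND libraries, and in the right panel they lie within the 8ND range.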

How the data were processed

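DREAM libraries of laser-microdissected, formalin-fixed colon were analysed. The authors deposited, per the labels for mm9 with Bowtie2 and SAMtools named in the submitters' processing notes, counts of methylated and unmethylated reads per CCCGGG site and 2 percentages, raw and adjusted with spiked standards. The methods of the paper name the human genome for mapping, while site names give mm9. Raw percentages were checked to be the methylated share of reads (within 0.006 points at every site) and adjusted ones to follow by 1 odds factor per library (within 0.00655 points).

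Computed here in Python 3.11.15 (numpy 2.4.6, scipy 1.17.1, pandas 2.3.3) and R 4.3.3 (limma 3.58.1) were per-site equal-variance tests, called at p under 0.05 and over 5 points, and library means compared by two-sided exact permutation, where p is the share of the 792 assignments with at least the observed absolute difference. All differences are 0ND minus 2ND. The tests were tried on simulated data, in which sites varied independently and 200 of 15165 were raised by 15 points in 0ND. The equal-variance rule found 142 of the 200 (71.0%) and called 143 of 14965 unchanged sites (0.956%). With Benjamini-Hochberg adjustment it found 3 of the 200 and called 0 unchanged sites. The 20-read minimum was set here, since the paper names none.

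Members, strata and lists were chosen with earlier results of these data known. The sites named are the 10 largest higher and the 5 largest lower in 0ND among called sites without overlap, and the 3 runs with most sites, ties by mean difference; 1 site among the 10 largest is not reported here. Alternatives were read minimums of 10 and 50, coverage in at least 3 libraries per group, raw percentages, unequal variances, limma, per-site exact permutation, a quasi-binomial model with the factor as offset, Benjamini-Hochberg adjustment, centring, 10 points, leaving out each library, the number range, other levels, windows and gaps. Odds, 4-library levels and splits by factor were added after the data were seen. Each mouse gave 1 library, and intervals cover counting error only. Repeat and unique sequences were not separated, and polyps were not used here.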

Additional observations from a re-analysis of the deposited data

Results flagged for a closer look

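In 28 sets of library values looked at for a library apart from the rest of its group (means, factors, depth and shares of reads, and means by level and density, in each diet), 4 held one, where chance would give about 1.40, and all 4 are mouse LC1832 of 2ND. Its mean adjusted methylation was 15.7%, with the next 2ND library at 16.7% and the highest at 17.3%. At level 50 to 80% it had 59.9%, with the next at 66.0%. At level 80% and over it had 86.5%, with the next at 89.6%. At sites with 1 other listed site near it had 30.1%, with the next at 32.1%. These sets overlap in their sites and are not independent. Its depth of 11560980 reads on sites and its factor of 1.38 were within the range of the other libraries. Without this mouse 529 sites (3.49%) were called in place of 673, 462 higher and 67 lower in 0ND, and the mean differences at the levels 50 to 80% and 80% and over were 4.50 and 2.20 points, with adjusted exact permutation p values of 0.00938 and 0.0225.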

How the results depend on the processing

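No paired analysis was possible because 0ND and 2ND are different mice with no number in common. In raw percentages 0.989% of sites were called, the mean difference was 0.589 points (exact permutation p = 0.587), 15 sites were in runs, and the threshold was missed at levels 50 to 80% and 80% and over (4.67 and 3.36 points), at densities 0 and 1 (2.61 and 1.47), at partly methylated sites of density 0, 1 and 2 to 3 (3.37, 3.24 and 1.61) and for level 20 to 80% against under 20% (2.68), while level 20 to 80% against 80% and over turned to -0.815. Benjamini-Hochberg adjustment called 0 sites, a 10-point minimum 2.33% and the commoner number range 2.76%. The mean over sites was 0.00229 points as a median over sites, which is near 0 since most sites are unmethylated, and -0.519 for pooled counts. Within the commoner range, where few assignments exist, it was 1.15, levels gave 0.0133 (under 5%), 0.176 (5 to 20%), 6.95 (50 to 80%) and 3.54 (80% and over), and densities 4.03 (0), 2.35 (1) and 0.0567 (4 or more). Leaving mouse LC1832 out of that range too gave 0.932 points (exact permutation p = 0.0476). Splitting libraries by factor, the mean difference was 0.750 points (2 against 3 libraries, where 0.100 is the smallest p) and 0.739 points (3 against 4), and in raw percentages 0.817 and 0.571. A 5000-base window gave 0.887 at density 2 to 3, now past the threshold, 0.173 at 4 or more, and 2.15 at 4 or more among partly methylated sites. Taking the midpoint as level moved the density contrast to -3.76, past the threshold. A minimum of 50 reads left 155 sites in runs. Leaving out each library gave 3.30 to 5.20% called, 83.1 to 91.5% of them higher in 0ND, mean differences of 0.577 to 0.896 points (exact permutation p 0.00606 to 0.0485), 1.71 to 3.29 at level 20 to 50%, 4.50 to 6.36 at 50 to 80%, 2.20 to 3.30 at 80% and over, and -2.97 to -1.97 for the density contrast, which passed the threshold without mouse LC1824 or LC1829. The other 80 alternative values for these results, and 149 of 168 for the named sites, kept direction and side of the threshold, and 19 for the named sites fell short of it. The cause of these shifts was not tested. Depth limits single sites unevenly, with a median of 84 reads per site in mouse LC1820 and 775 in mouse LC1807.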

Other observations

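Sites on the X chromosome were compared with autosomal ones after their values had been seen. Of 280 compared sites on X, 18 were called higher and 2 lower in 0ND (7.14%, against 4.39% of autosomal sites), and mean methylation over them was 37.6% ± 1.75 (SD, n = 5) in 0ND and 37.1% ± 2.37 (SD, n = 7) in 2ND. One of the X copies in each female cell is silenced and carries methylation at many islands. At 119 partly methylated X sites (level 20 to 80%) the order of the shares was the opposite, with 10.1% called on X and 20.8% on autosomes. There the difference was 0.280 points (exact permutation p = 0.845), beside 4.18 points at 1587 autosomal sites (exact permutation p = 0.00253), and the difference between them was 3.90 points (exact permutation p = 0.0442). The X sites lay lower in level: 101 of the 119 were at 20 to 50%, where X differed by -0.653 points and autosomes by 2.82 (exact permutation p of the gap 0.0833). At the 18 X sites of level 50 to 80% the difference was 5.51 points, close to 5.59 on autosomes. These p values are not adjusted.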
